A study of Homo sapiens with 11 samples.

Results

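The short arm of chromosome 5 was taken as every gene of the RNA tables whose locus lies on chromosome 5 and ends below 46.4 Mb in hg19, and as the chromatin domains called on the same stretch. It holds 642 of the 57815 genes listed. Of these, 176 reached a mean of at least 1 FPKM in at least 1 of 3 cell lines and are called expressed here, against 19281 expressed genes in the whole series. FPKM counts the sequenced fragments of a gene for its length and for the number mapped in the library. Of the expressed genes, 127 carry a gene name and 49 the name of an unnamed clone, and 182 genes of the arm were listed at 0 in every library. The cut at a mean of 1 FPKM fell between RP11-811I15.1, with a highest line mean of 0.938 FPKM, and CTNND2, with 1.15 FPKM.

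The groups were DMS153 and H209, established human lines labelled as small cell lung carcinoma, and MRC5, an established line labelled as normal lung fibroblasts. All 3 lines were grown in the same RPMI-based medium with serum, and no treatment separated them. DMS153 had 3 RNA-seq libraries, H209 had 2 and MRC5 had 3. Hi-C, in which crosslinked stretches of DNA that lie near each other are joined and sequenced as pairs, was run once per line. Each carcinoma group is 1 cell line and MRC5 is a line of another lineage, so tumour, lineage and line cannot be told apart. For DMS153 the RNA library titles read DM153, with DMS153 in the cell line field, and the RNA labels do not give selection, strand or separate cultures. Spreads and p-values therefore measure only how these libraries vary, and that variation may be technical.

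The lines carried the markers of their labels. All 8 neuroendocrine markers reached 1 FPKM in DMS153 and in H209, with summed levels of 2003 to 2170 FPKM in DMS153 libraries, 1281 to 1305 FPKM in H209 libraries and 0.347 to 0.479 FPKM in MRC5 libraries, where GRP and INSM1 were listed at 0. The 8 fibroblast markers summed to 10.2 to 11.1 FPKM in DMS153, 9.36 to 10.5 FPKM in H209 and 9288 to 10177 FPKM in MRC5. Immune and endothelial markers summed to at most 1.27 FPKM in any library. At least 1 FPKM was reached by 16462 to 16580 genes in DMS153 libraries, 15963 to 16053 in H209 and 13425 to 13560 in MRC5, so more genes passed that level in the carcinoma lines over the whole genome. The files hold no read counts, and depth is unknown. Judged by the deposited confidence bounds, the median precision of short-arm genes was 11.2% to 18.0% of the value at 1 to 10 FPKM and 4.44% to 5.38% from 10 FPKM upwards, as the range over libraries. In bulk RNA, fewer cells of a type and less RNA per cell cannot be told apart.

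The short arm of chromosome 5 runs from the telomere, where genes lie densely around TERT, through long gene-poor stretches of cadherin genes to the gene-rich part before the centromere. TERT encodes the catalytic protein of telomerase, which adds telomere repeats to chromosome ends and is silent in most somatic cells. The arm is known for recurrent gain in lung carcinomas, and it also carries the oncostatin M and interleukin 7 receptor genes, which belong to cytokine signalling. DNA copy number was not analysed here.

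The promoters below were chosen because they show the letters at the start sites of a cell cycle gene higher in both carcinoma lines, a mitochondrial gene that starts beside another, the homeobox gene with the highest rise in H209 and the 2 receptor genes with the deepest falls of their list. Each is 300 bases long, from 250 bases before to 50 bases from the annotated start onward, taken from RefSeq for GRCh38.p14 on the strand of the gene, and capitals mark matches to the motifs searched.

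SKP2, chr5:36151861-36152160, plus strand: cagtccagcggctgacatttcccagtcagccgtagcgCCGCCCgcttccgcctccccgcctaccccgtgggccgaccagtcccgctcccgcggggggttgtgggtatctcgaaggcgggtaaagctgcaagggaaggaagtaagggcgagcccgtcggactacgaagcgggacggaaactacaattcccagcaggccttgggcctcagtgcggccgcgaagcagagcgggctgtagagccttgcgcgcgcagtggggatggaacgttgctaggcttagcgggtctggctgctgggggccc
NDUFS6, chr5:1801157-1801456, plus strand: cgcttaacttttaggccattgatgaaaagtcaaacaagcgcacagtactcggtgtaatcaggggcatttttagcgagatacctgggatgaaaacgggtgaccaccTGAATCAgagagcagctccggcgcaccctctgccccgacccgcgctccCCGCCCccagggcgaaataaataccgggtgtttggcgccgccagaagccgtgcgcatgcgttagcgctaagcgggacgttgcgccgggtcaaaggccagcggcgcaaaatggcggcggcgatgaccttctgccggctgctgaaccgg
IRX2, chr5:2751628-2751927, minus strand: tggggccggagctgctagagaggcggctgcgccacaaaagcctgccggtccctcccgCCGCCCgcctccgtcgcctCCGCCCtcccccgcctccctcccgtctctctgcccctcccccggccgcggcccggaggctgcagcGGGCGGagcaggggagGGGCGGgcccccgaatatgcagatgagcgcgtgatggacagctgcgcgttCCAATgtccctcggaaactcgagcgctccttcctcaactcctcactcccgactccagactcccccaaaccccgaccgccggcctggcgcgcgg
OSMR, chr5:38845762-38846061, plus strand: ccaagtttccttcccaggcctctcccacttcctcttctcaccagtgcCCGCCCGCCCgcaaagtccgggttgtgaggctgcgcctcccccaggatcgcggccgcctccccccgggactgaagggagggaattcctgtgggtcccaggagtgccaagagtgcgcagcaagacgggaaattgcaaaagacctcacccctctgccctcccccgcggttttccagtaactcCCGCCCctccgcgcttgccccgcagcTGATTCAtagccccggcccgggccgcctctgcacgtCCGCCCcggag
IL7R, chr5:35856641-35856940, plus strand: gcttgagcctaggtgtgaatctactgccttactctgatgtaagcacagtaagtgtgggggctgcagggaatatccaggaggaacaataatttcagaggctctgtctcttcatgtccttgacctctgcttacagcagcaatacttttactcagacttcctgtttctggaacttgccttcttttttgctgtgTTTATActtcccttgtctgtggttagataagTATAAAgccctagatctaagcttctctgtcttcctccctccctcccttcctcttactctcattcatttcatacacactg

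The motifs were the GC box GGGCGG, the CCAAT box CCAAT, the TATA box TATAAA, the E-box CACGTG and the AP-1 motif TGANTCA, each searched on both strands. Of the expressed genes 118 matched a RefSeq promoter. A GC box stood in 82 of them (69.5%), against 45.0% of all 35116 promoters of the table. CCAAT stood in 34.7% against 34.6%, TATAAA in 6.78% against 11.5%, CACGTG in 8.47% against 7.26% and TGANTCA in 5.08% against 7.71%. Of these promoters, 12 belong to genes called lower in both carcinoma lines and 45 to genes called higher in both. In that order, a GC box stood in 6 and 34, CCAAT in 3 and 20 and TATAAA in 2 and 4. CACGTG stood in 1 and 2 and TGANTCA in 3 and 0. These counts are small, and no difference between the sets was tested. Median GC content was 67.3% for the arm's 118 promoters and 58.7% for all promoters, with 71% for the 45 higher genes and 60% for the 12 lower ones. The IL7R window has 0 CpG and 2 TATAAA matches, and the IRX2 window has 34 CpG and 4 GC boxes. These matches describe letters only, and expressed genes differ from all genes in GC content to begin with.

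The count of short-arm genes at 1 FPKM or more was higher in the carcinoma lines. It was 142, 142 and 143 in the DMS153 libraries, 139 and 140 in the H209 libraries, against 103, 102 and 101 in the MRC5 libraries. The share of the arm in the summed FPKM, without small RNA and mitochondrial genes, was 1.17% to 1.21% in DMS153, 1.23% to 1.27% in H209 and 0.691% to 0.707% in MRC5. Over all genes, small RNA and mitochondrial genes included, the share was 0.642%, 0.636% and 0.609% in DMS153, 1.10% and 1.07% in H209, against 0.613%, 0.613% and 0.619% in MRC5. The count and the first share separate both carcinoma lines from MRC5, while over all genes the DMS153 libraries overlap those of MRC5 and only H209 lies above. The arm was chosen by expression: it was selected on the levels of its genes in these RNA libraries, so its counts and medians are descriptions and support nothing.

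Differences were fitted with limma on log2(FPKM + 1) over all 19066 genes that had at least 1 FPKM in at least 2 libraries. A call needed an adjusted p (Benjamini-Hochberg, across the 19066 genes) under 0.05 together with a log2 fold change of 1 or more up or down. The pseudocount of 1 understates the change of low genes. Of the expressed short-arm genes 175 were tested. In DMS153 against MRC5, 86 were called higher (49.1%, against 34% of all genes tested) and 16 lower (9.14%, against 16.4%). In H209 against MRC5, 95 were called higher (54.3%, against 33.0%) and 23 lower (13.1%, against 14.9%). Of the 676 genes tested on the rest of chromosome 5, 140 (20.7%) were higher and 207 (30.6%) lower in DMS153, and 152 (22.5%) higher and 184 (27.2%) lower in H209.

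The median log2 fold change of the 176 expressed genes was 0.98 in DMS153 against MRC5 and 1.13 in H209 against MRC5. Over all genes tested it was 0.44 and 0.46, so the arm's tested genes stood 0.55 and 0.65 above the median of all. On the rest of chromosome 5 the medians were -0.33 and -0.12. Among the 78 short-arm genes with a mean of at least 1 FPKM in every line the medians were 0.98 and 1.11. Scaling sets how many genes are called: with median ratio scaling 69 were higher and 27 lower in DMS153, and 69 higher and 32 lower in H209. Higher genes were thus 71.9% of those called in DMS153 in place of 84.3%, and 68.3% in H209 in place of 80.5%. With quantile normalization those shares were 73.6% and 73.3%. Relative to all genes tested, the median of the arm stayed 0.55 to 0.67 higher in DMS153 and 0.62 to 0.72 higher in H209 over the scalings tried. It was 0.93 and 0.98 higher with a pseudocount of 0.1. Without the filter on low values, which adds genes near 0 and takes 460 genes of the arm, it was 0.0085 and 0.014 higher.

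**Figure D1:**
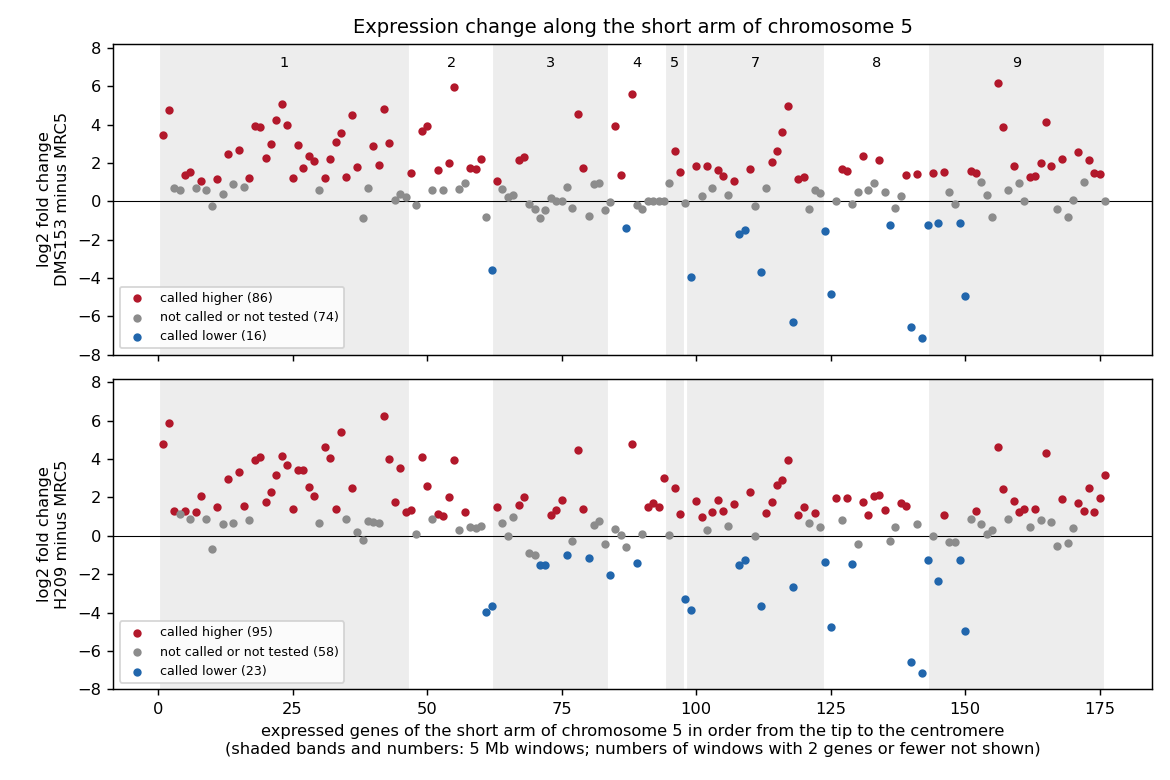
Log2 fold change of each of the 176 expressed genes in order from the tip to the centromere, DMS153 minus MRC5 above and H209 minus MRC5 below, with 5 Mb windows shaded in turn. Red points are genes called higher (86 and 95), blue points genes called lower (16 and 23) and grey points the others, and no blue point lies in window 1.

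The 2 carcinoma lines were compared with the same MRC5 libraries, so their calls are not independent. Side by side, 67 genes were higher in both, 14 lower in both, 19 higher in DMS153 alone, 28 higher in H209 alone, 2 lower in DMS153 alone, 9 lower in H209 alone and 36 called in neither. No gene was called in opposite directions. The same joint counts were not made over all genes tested, so nothing particular to the arm is read from them. By level, 78 genes had line means of at least 1 FPKM in all 3 lines, 38 in DMS153 and H209 without MRC5, 17 in DMS153 alone, 19 in H209 alone and 13 in MRC5 alone. Of the 19281 expressed genes of the whole series, 11552 had such means in all 3 lines. The other patterns were not counted over all genes, so nothing particular to the arm is read from them. The 13 MRC5 genes include OSMR, IL7R, DAB2, C7, CDH6 and ADAMTS12, and the 38 include TERT, IRX2, SEPP1 and ADCY2.

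Windows of 5 Mb, numbered from the telomere, held from 1 to 46 expressed genes. Window 1, from 0 to 5 Mb, held 46 of them among 95 listed genes, and means of at least 1 FPKM were reached by 40 of them in DMS153, by 40 in H209 and by 18 in MRC5. Its median log2 level, log2(FPKM + 1), was 3.64, 3.79 and 3.70 in the DMS153 libraries, 4.01 and 3.94 in the H209 libraries, against 0.45, 0.39 and 0.51 in the MRC5 libraries. The median log2 fold change there was 1.76 in DMS153 and 1.76 in H209. The counts of called genes in every window can be set beside the shares over all genes tested. Those were 34% higher and 16.4% lower in DMS153, and 33.0% higher and 14.9% lower in H209. In window 1, 32 of 45 tested genes were called higher and 0 lower in DMS153, and likewise 32 and 0 in H209. With limma's unadjusted p under 0.05 and any size of change, 2 were lower in DMS153 and 2 in H209.

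Window 2, from 5 to 10 Mb, had median log2 fold changes of 1.54 in DMS153 and 0.96 in H209, with 9 of 16 genes higher and 1 lower in DMS153 and 8 higher and 2 lower in H209. Window 3, from 10 to 15 Mb, had medians of 0.21 and 0.69, with 5 of 21 genes higher and 0 lower in DMS153 and 8 higher and 4 lower in H209. Window 4, from 15 to 20 Mb, had medians of 0.00 and 0.35, with 3 of 11 genes higher and 1 lower in DMS153 and 5 higher and 2 lower in H209. It holds 4 clones listed at 0 in every DMS153 and MRC5 library, so its DMS153 median of 0.00 does not show unchanged expression. In the MRC5 libraries the median gene of window 4 stood at a log2 level of 0.00. Window 5, from 20 to 25 Mb, held 3 expressed genes. Window 6, from 25 to 30 Mb, held only LINC01021, so no median is drawn from it.

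Window 7, from 30 to 35 Mb, had median log2 fold changes of 0.71 in DMS153 and 1.17 in H209, with 12 of 25 genes higher and 5 lower in DMS153 and 15 higher and 5 lower in H209. Window 8, from 35 to 40 Mb, was the most mixed, with 6 of 20 genes higher and 6 lower in DMS153 and 9 higher and 6 lower in H209. Its median log2 level was 1.53, 1.46 and 1.41 in DMS153, 1.81 and 2.08 in H209, against 3.10, 2.69 and 3.01 in MRC5, while the median of the gene-wise fold changes was 0.39 and 0.72. The level of the median gene and the median change thus differ in sign in this window. Window 9, from 40 to 45 Mb, had medians of 1.28 and 0.87, with 17 of 32 genes higher and 3 lower in DMS153 and 15 higher and 3 lower in H209.

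**Figure D2:**
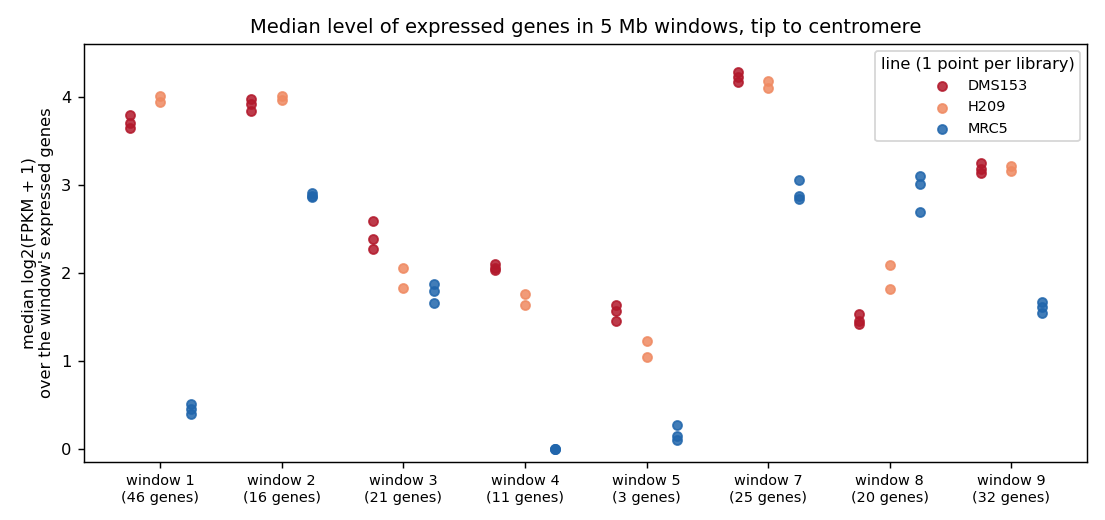
Median log2(FPKM + 1) over the expressed genes of each 5 Mb window with at least 3 of them, 1 point per library, DMS153 left, H209 middle and MRC5 right. In window 1 the carcinoma libraries sit between 3.64 and 4.01 and the MRC5 libraries between 0.39 and 0.51, and in window 8 the MRC5 libraries sit highest.

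Of the 8 windows with at least 3 expressed genes, 5 in DMS153 and 7 in H209 had a median above that of all genes. Those below it were windows 3, 4 and 8 in DMS153 and window 4 in H209. Expressed genes were missing over 4.62 Mb between CDH12 and LINC01021 and over 3.70 Mb between LINC01021 and CDH6. The longest run of neighbouring expressed genes called higher in DMS153 held 13 genes, ending at TERT, and that in H209 held 12 genes, from CEP72 to TERT. Of the arm's tested genes 49.1% and 54.3% were called higher, and runs elsewhere in the genome were not counted. Nothing is therefore read from the length of these runs. Besides 3 unnamed clones, AC026740.1, CTD-2589H19.6 and CTD-2589H19.4, the 12 shared genes are CEP72, TPPP, ZDHHC11, ZDHHC11B, BRD9, TRIP13, NKD2, SLC12A7 and TERT. ZDHHC11 and ZDHHC11B are near-identical neighbours that can share reads, and CEP72 with TPPP and BRD9 with TRIP13 overlap. In all, 67 of the expressed genes overlap another, and reads of such pairs cannot be told apart without the strand.

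The genes are taken below by role, and each count can be set beside the shares of all genes tested given above, 34% higher and 16.4% lower in DMS153 and 33.0% higher and 14.9% lower in H209. A member that passed the filter only through the lines where it is high had to differ, so counts and medians over tested members describe the lists and support nothing.

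Genes of telomerase and cell division were mostly higher in the carcinoma lines. Of 11 genes of this list, 9 were called higher and 0 lower in DMS153, and 9 and 0 in H209. At an unadjusted p under 0.05 in limma, 1 gene was lower in DMS153 and 0 in H209. With median ratio scaling 7 were higher and 1, RAD1, lower in DMS153, and 8 higher and 0 lower in H209. TERT (ENSG00000164362.14, chr5:1253262-1295184) stood at 3.74, 3.43 and 2.75 FPKM in the DMS153 libraries and 3.39 and 3.02 FPKM in the H209 libraries, and at most 0.000882 FPKM in the MRC5 libraries. All carcinoma libraries lie above all fibroblast libraries, and the log2 fold changes were 2.10 ± 0.10 (SE) in DMS153 and 2.07 ± 0.11 in H209. TRIP13 (ENSG00000071539.9, chr5:892758-919472), an ATPase that takes apart spindle checkpoint complexes, had 26.0, 27.7 and 23.5 FPKM in the DMS153 libraries, 36.3 and 37.2 FPKM in the H209 libraries and 1.99, 3.16 and 2.50 FPKM in the MRC5 libraries. Its log2 fold changes were 2.92 ± 0.12 and 3.42 ± 0.13.

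SKP2 (ENSG00000145604.11, chr5:36152091-36184421), the F-box protein that marks the cell cycle inhibitor CDKN1B for degradation, stood at 26.6, 29.6 and 24.0 FPKM in the DMS153 libraries, 33.8 and 36.6 FPKM in the H209 libraries and 8.23, 7.52 and 8.91 FPKM in the MRC5 libraries. The groups do not overlap, but its log2 fold change in DMS153, 1.59 ± 0.09, was 1.00 with median ratio scaling and no longer called. CEP72, a centrosomal protein, had 20.6, 20.6 and 24.0 FPKM in the DMS153 libraries, 23.2 and 21.9 FPKM in the H209 libraries and 0.599, 0.310 and 0.613 FPKM in the MRC5 libraries. NIPBL, which loads cohesin onto chromatin, had 45.6, 45.4 and 42.4 FPKM in the DMS153 libraries, 29.8 and 27.7 FPKM in the H209 libraries and 7.75, 7.96 and 7.97 FPKM in the MRC5 libraries, with log2 fold changes of 2.35 ± 0.06 in DMS153 and 1.74 ± 0.07 in H209. NUP155, a nuclear pore protein, and DROSHA, the nuclease that begins microRNA processing, were called higher in both lines, by 2.13 and 1.86 log2 units in DMS153 and 2.14 and 1.83 in H209.

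C5orf34 was also called higher, by 2.20 log2 units in DMS153 and 1.92 in H209. BRD9, a subunit of a chromatin remodelling complex, was called higher by 1.23 and 1.40 log2 units, and lost both calls with median ratio scaling, at 0.63 and 0.67. The other two genes of the list were not called against MRC5. CCT5, a chaperonin subunit, had log2 fold changes of 0.64 ± 0.06 and 0.69 ± 0.07, and was called in H209 with quantile normalization (1.17). RAD1, part of a DNA damage checkpoint clamp, had 22.6, 20.9 and 19.4 FPKM in the DMS153 libraries, 45.6 and 44.4 FPKM in the H209 libraries and 29.2, 28.2 and 27.0 FPKM in the MRC5 libraries, and was called lower in DMS153 than in H209, with a log2 fold change of -1.07 ± 0.08, a call lost with median ratio scaling (-0.94).

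**Figure D3:**
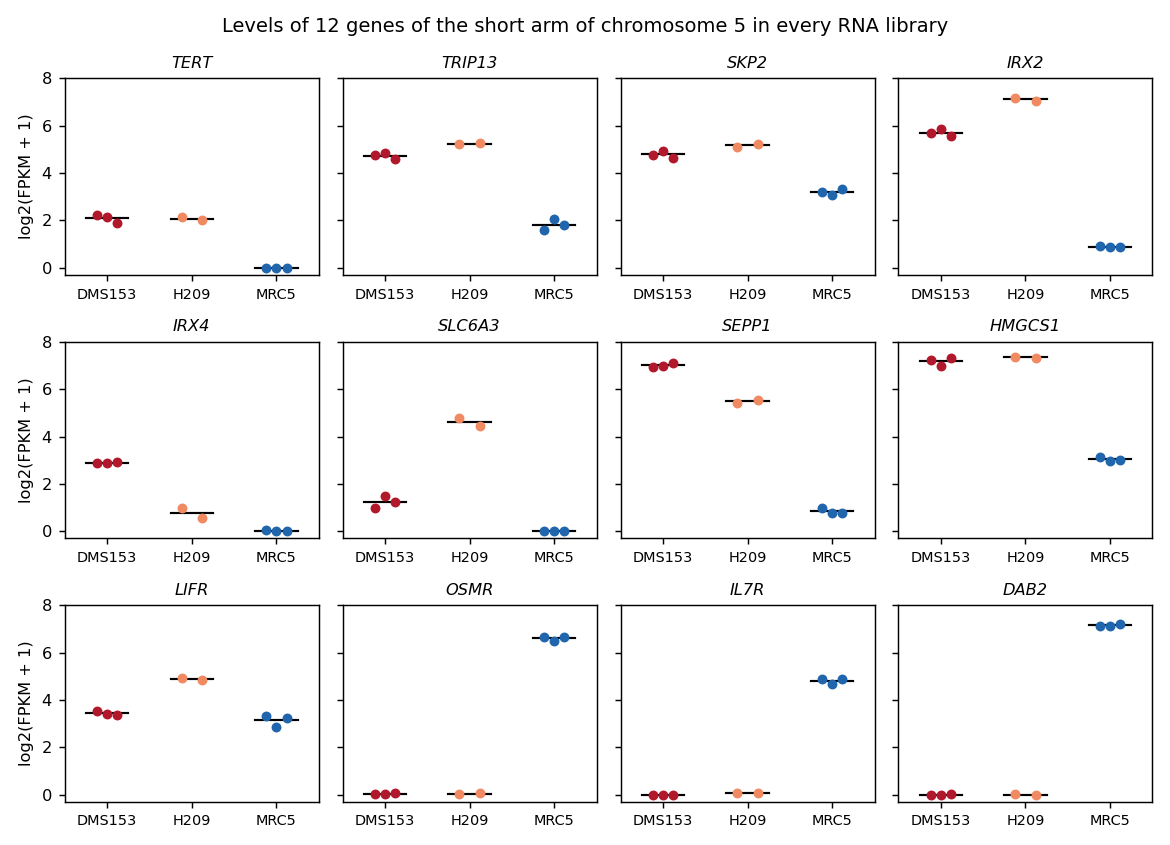
Log2(FPKM + 1) of 12 named genes in every RNA library, with DMS153 left, H209 middle and MRC5 right in each panel, and black bars for line means. TERT, TRIP13, SKP2, IRX2, IRX4, SLC6A3, SEPP1, HMGCS1 and LIFR are higher in all carcinoma libraries than in any MRC5 library, and OSMR, IL7R and DAB2 are lower. Against MRC5, LIFR was not called in DMS153 and IRX4 was not called in H209.

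The Iroquois genes IRX4, IRX2 and IRX1, which encode homeobox transcription factors of early patterning, lie between 1.88 and 3.60 Mb, with C5orf38 beside IRX2. Of these 4 genes, 3 were called higher and 0 lower in each carcinoma line, with IRX4 among the 3 in DMS153 and IRX1 among the 3 in H209. In limma 0 were lower at an unadjusted p under 0.05 in either line. IRX2 (ENSG00000170561.8, chr5:2745959-2752969) stood at 50.2, 57.0 and 46.4 FPKM in the DMS153 libraries, 145 and 130.1 FPKM in the H209 libraries and 0.890, 0.829 and 0.826 FPKM in the MRC5 libraries. Its log2 fold changes were 4.81 ± 0.09 in DMS153 and 6.23 ± 0.10 in H209, and DMS153 was lower than H209 by a called difference of -1.41 ± 0.10. C5orf38, which overlaps it, had 25.2, 26.1 and 23.1 FPKM in the DMS153 libraries, 51.8 and 48.0 FPKM in the H209 libraries and 2.67, 1.62 and 2.32 FPKM in the MRC5 libraries.

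IRX4 (ENSG00000113430.5, chr5:1877541-1887350) had 6.41, 6.40 and 6.54 FPKM in the DMS153 libraries, 0.950 and 0.493 FPKM in the H209 libraries and at most 0.0504 FPKM in the MRC5 libraries. It was called higher in DMS153, with a log2 fold change of 2.87 ± 0.10, and not in H209, with 0.74 ± 0.11, where its call came with TPM scaling and with a pseudocount of 0.1. IRX1 (ENSG00000170549.3, chr5:3596168-3601517) had at most 0.0600 FPKM in the DMS153 libraries, 2.43 and 2.26 FPKM in the H209 libraries and 0 FPKM in every MRC5 library. The differences between the carcinoma lines were called for both, at 2.13 ± 0.11 for IRX4 and -1.67 ± 0.07 for IRX1 (DMS153 minus H209).

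The tested receptors of cytokines, hormones and peptides were mostly lower in the carcinoma lines. Of the 9 genes of the list, 5 were expressed and tested, and 4 were called lower and 0 higher in DMS153 (1 higher at an unadjusted p under 0.05 in limma), and 4 lower and 1 higher in H209. OSMR, IL7R and NPR3 passed the filter only through MRC5, and over all 9 members without the filter the median log2 fold changes were -0.28 in DMS153 and -0.24 in H209. OSMR (ENSG00000145623.8, chr5:38845960-38945698), the oncostatin M receptor, had at most 0.0377 FPKM in the DMS153 libraries, at most 0.0387 FPKM in the H209 libraries and 100.3, 88.8 and 99.9 FPKM in the MRC5 libraries. Its log2 fold changes were -6.56 ± 0.07 in DMS153 and -6.55 ± 0.08 in H209. Its locus overlaps that of RICTOR, the defining subunit of an mTOR kinase complex, which ran the other way with 19.5, 17.4 and 17.7 FPKM in the DMS153 libraries, 10.1 and 9.13 FPKM in the H209 libraries and 7.42, 4.70 and 6.25 FPKM in the MRC5 libraries.

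IL7R (ENSG00000168685.10, chr5:35852797-35879705), the interleukin 7 receptor, had at most 8.05e-05 FPKM in the DMS153 libraries, at most 0.0501 FPKM in the H209 libraries and 28.7, 24.3 and 28.7 FPKM in the MRC5 libraries, with log2 fold changes of -4.82 ± 0.08 and -4.75 ± 0.09. PTGER4, a prostaglandin E2 receptor, had 1.30, 1.33 and 2.71 FPKM in the DMS153 libraries, at most 0.158 FPKM in the H209 libraries and 4.74, 4.37 and 5.97 FPKM in the MRC5 libraries. NPR3, which clears natriuretic peptides, had at most 0.134 FPKM in the DMS153 libraries, 0.225 and 0.242 FPKM in the H209 libraries and 3.25, 1.85 and 2.61 FPKM in the MRC5 libraries. Both were called lower in each carcinoma line, but PTGER4 in DMS153 not when scaled without small RNA and mitochondrial genes (-0.92). LIFR (ENSG00000113594.5, chr5:38475065-38608456), the receptor of leukemia inhibitory factor, which like OSMR signals with IL6ST, had 10.6, 9.70 and 9.36 FPKM in the DMS153 libraries, 29.2 and 27.6 FPKM in the H209 libraries and 8.90, 6.33 and 8.47 FPKM in the MRC5 libraries. The H209 libraries lie above all others, and the log2 fold changes were 0.30 ± 0.11 in DMS153 (not called) and 1.74 ± 0.13 in H209 (called higher). TAS2R1, RXFP3, PRLR and GHR did not reach a mean of 1 FPKM in any line. Fibroblast markers were also far lower in the carcinoma lines, as given above, and the part of lineage in these receptor differences was not tested.

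Among 8 tested genes of the list of secreted factors and complement, which also holds the F-box gene FBXL7, 3 were called higher and 3 lower in DMS153, and 2 higher and 4 lower in H209. SEPP1 (ENSG00000250722.1, chr5:42799982-42887494), selenoprotein P, a selenium carrier of plasma, stood at 121, 124 and 138 FPKM in the DMS153 libraries, 42.3 and 45.8 FPKM in the H209 libraries and 1.00, 0.705 and 0.683 FPKM in the MRC5 libraries. It had the highest log2 fold change of the named genes in DMS153, 6.16 ± 0.09, and 4.65 ± 0.10 in H209. C1QTNF3 had 20.3, 20.0 and 18.4 FPKM in the DMS153 libraries, 10.8 and 12.9 FPKM in the H209 libraries and 0.335, 0.801 and 0.948 FPKM in the MRC5 libraries. CCL28, a chemokine of mucosal epithelia, was called higher in DMS153, with 3.07, 2.18 and 2.64 FPKM in the DMS153 libraries, 0.548 and 0.740 FPKM in the H209 libraries and at most 0.0284 FPKM in the MRC5 libraries.

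C7 (ENSG00000112936.14, chr5:40909354-40983041), a complement component of the membrane attack complex, had at most 0.0711 FPKM in the DMS153 libraries, at most 0.00059 FPKM in the H209 libraries and 28.0, 36.7 and 27.2 FPKM in the MRC5 libraries. ADAMTS12, a secreted metalloprotease, had at most 0.0203 FPKM in the DMS153 libraries, at most 0.0275 FPKM in the H209 libraries and 12.7, 11.3 and 11.8 FPKM in the MRC5 libraries. Both were called lower in each carcinoma line, C7 by log2 fold changes of -4.92 ± 0.11 and -4.97 ± 0.13. GDNF, a neurotrophic factor, was called lower in DMS153 (-1.22 ± 0.08) and not in H209 (-0.28 ± 0.09), where quantile normalization gave a call (-1.02). SEMA5A, an axon guidance semaphorin, had 8.11, 7.75 and 8.10 FPKM in the DMS153 libraries, at most 0.0101 FPKM in the H209 libraries and 16.0, 12.3 and 15.8 FPKM in the MRC5 libraries. It was called lower in H209 (-3.95 ± 0.11). In DMS153 it was not called (-0.80 ± 0.10) as scaled by the authors, and was called lower with median ratio, TPM and quantile scaling (-1.38 to -1.18). The lines differed by 3.15 ± 0.11 (DMS153 minus H209). FBXL7, which is not secreted, was called lower in H209, with 3.07, 3.27 and 3.14 FPKM in the DMS153 libraries, at most 0.0601 FPKM in the H209 libraries and 2.94, 3.68 and 3.37 FPKM in the MRC5 libraries.

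Solute carriers, channels and membrane enzymes were higher or not called, except ANKH, which was called lower with median ratio scaling. Of 9 tested genes, 5 were called higher and 0 lower in DMS153, and 7 higher and 0 lower in H209. At an unadjusted p under 0.05 in limma, 1 was lower in each line. SLC6A3 (ENSG00000142319.14, chr5:1392909-1445545), the dopamine transporter, stood at 0.950, 1.78 and 1.39 FPKM in the DMS153 libraries, 26.5 and 20.6 FPKM in the H209 libraries and at most 0.00107 FPKM in the MRC5 libraries. Its log2 fold changes were 1.23 ± 0.14 in DMS153, which quantile normalization brought to 0.75 without a call, and 4.61 ± 0.15 in H209. ADCY2 (ENSG00000078295.11, chr5:7396321-7830194), an adenylyl cyclase, had 53.8, 65.1 and 66.0 FPKM in the DMS153 libraries, 13.9 and 15.3 FPKM in the H209 libraries and at most 0.0431 FPKM in the MRC5 libraries. DMS153 was higher than H209 by 2.00 ± 0.10 on the log2 scale.

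LPCAT1 (ENSG00000153395.5, chr5:1456595-1524092), an enzyme that remodels phosphatidylcholine, had 68.1, 72.7 and 69.3 FPKM in the DMS153 libraries, 273 and 242 FPKM in the H209 libraries and 14.2, 14.8 and 14.2 FPKM in the MRC5 libraries. Its log2 fold changes were 2.21 ± 0.06 in DMS153 and 4.07 ± 0.07 in H209. SLC9A3, a sodium and proton exchanger, had 17.9, 14.3 and 22.0 FPKM in the DMS153 libraries, 30.1 and 26.9 FPKM in the H209 libraries and 2.23, 1.90 and 1.65 FPKM in the MRC5 libraries, and SLC12A7, a potassium and chloride cotransporter, 35.1, 37.9 and 34.3 FPKM in the DMS153 libraries, 43.8 and 38.4 FPKM in the H209 libraries and 6.69, 6.05 and 5.75 FPKM in the MRC5 libraries. SLC45A2 was called higher in H209 (1.22 ± 0.10), but not with quantile normalization, and in DMS153 only with a pseudocount of 0.1. CLPTM1L, next to TERT, had log2 fold changes of 0.58 ± 0.08 and 0.68 ± 0.09 and was not called, and ANKH, a pyrophosphate transporter, had -0.47 ± 0.08 and -0.41 ± 0.09. SLC6A19, SLC6A18 and SLC1A3 were not expressed.

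Of 13 tested genes of mitochondria and energy metabolism, 5 were called higher and 0 lower in DMS153 (1 lower at an unadjusted p under 0.05 in limma), and 7 higher and 1 lower in H209. The 5 higher genes are a share near the 34% of all genes tested. With median ratio scaling 3 were higher and 1 lower in DMS153, and 2 higher and 2 lower in H209. HMGCS1 (ENSG00000112972.10, chr5:43289497-43313614), a synthase of the cholesterol pathway, stood apart with 149, 127 and 160.1 FPKM in the DMS153 libraries, 166 and 159 FPKM in the H209 libraries and 7.73, 6.74 and 7.09 FPKM in the MRC5 libraries. Its log2 fold changes were 4.15 ± 0.09 in DMS153 and 4.32 ± 0.10 in H209. AMACR, a racemase of branched fatty acids, was higher by 2.06 and 1.76 log2 units, and OXCT1, which opens ketone body use, by 1.58 in DMS153 (0.97 and not called with median ratio scaling).

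MRPS30, of the mitochondrial ribosome, and SRD5A1, a steroid reductase, were called higher in both lines, at 1.46 and 1.61 log2 units in DMS153 and 1.26 and 1.12 in H209. SDHA, NNT and FASTKD3 were called higher in H209, at 1.23, 1.28 and 1.26 log2 units, and in DMS153 had 0.72, 0.99 and 0.97 without a call. In DMS153 NNT was called without DMS153 replicate 3 (1.01) or MRC5 replicate 1 (1.01), FASTKD3 without MRC5 replicate 2 (1.02), and all 3 when scaled without small RNA and mitochondrial genes. Except AMACR and HMGCS1, the genes of the list called higher in H209 lost that call with median ratio scaling. NADK2, a mitochondrial NAD kinase, was called lower in H209, with 8.16, 9.34 and 7.53 FPKM in the DMS153 libraries, 2.78 and 2.59 FPKM in the H209 libraries and 9.90, 8.29 and 9.48 FPKM in the MRC5 libraries. NDUFS6, MRPL36, MTRR and PRKAA1 were not called against MRC5 as scaled by the authors, and of these only MTRR was called in no other setting.

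Genes of translation and RNA handling were mostly not called. Of 13 tested, 4 were called higher and 1 lower in DMS153, and 5 higher and 0 lower in H209 (2 lower at an unadjusted p under 0.05 in limma). The list's medians of 0.42 and 0.54 log2 units became -0.20 and -0.21 with median ratio scaling. PAPD7, a noncanonical poly(A) polymerase, had 39.9, 45.2 and 39.7 FPKM in the DMS153 libraries, 41.9 and 43.3 FPKM in the H209 libraries and 9.22, 10.3 and 9.50 FPKM in the MRC5 libraries. RPL37, a ribosomal protein, had 1061, 1124 and 988 FPKM in the DMS153 libraries, 898 and 995 FPKM in the H209 libraries and 1075, 1334 and 1149.6 FPKM in the MRC5 libraries. Its H209 libraries lie below those of MRC5 and its DMS153 libraries overlap them, and it was not called, except lower in H209 with median ratio scaling (-1.08). KIAA0947, ZNF131 and SUB1 were called higher in both lines and lost their calls with median ratio scaling, and SUB1 in DMS153 also did so without DMS153 replicate 1, at 1.00. BRIX1, of ribosome assembly, was called higher in H209 (1.17 ± 0.08) and lost that call with the same scaling. ZNF622 was called lower in DMS153, with 10.5, 10.5 and 12.5 FPKM in the DMS153 libraries, 20.5 and 20.0 FPKM in the H209 libraries and 31.0, 33.7 and 29.5 FPKM in the MRC5 libraries. NSUN2, ZFR, TARS, PAIP1, DNAJC21 and MED10 were not called against MRC5, except NSUN2 in H209 in 2 other scalings.

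Of 15 tested genes of cytoskeleton, adhesion and signalling, 5 were called higher and 2 lower in DMS153, and 4 higher and 4 lower in H209. In DMS153 these shares are near the 34% and 16.4% of all genes tested. Their medians of 0.37 and 0.30 became -0.23 and -0.13 with median ratio scaling. DAB2 (ENSG00000153071.10, chr5:39371780-39462402), an endocytic adaptor, had at most 0.0108 FPKM in the DMS153 libraries, at most 0.00838 FPKM in the H209 libraries and 139, 140.1 and 146 FPKM in the MRC5 libraries, the deepest fall of the arm, with log2 fold changes of -7.15 ± 0.06 and -7.15 ± 0.07. RAI14 (ENSG00000039560.9, chr5:34656342-34832732), an actin-bound protein, had 1.50, 3.55 and 1.70 FPKM in the DMS153 libraries, 32.8 and 43.1 FPKM in the H209 libraries and 239, 233 and 263 FPKM in the MRC5 libraries. Its 3 groups do not overlap, and DMS153 was lower than H209 by a log2 difference of -3.63 ± 0.23.

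TPPP, which promotes tubulin assembly, had 14.6, 16.2 and 15.9 FPKM in the DMS153 libraries, 18.5 and 18.3 FPKM in the H209 libraries and at most 0.181 FPKM in the MRC5 libraries, with log2 fold changes of 3.88 ± 0.07 and 4.10 ± 0.08. NKD2, an inhibitor of Wnt signalling, had 5.29, 4.97 and 4.84 FPKM in the DMS153 libraries, 20.5 and 18.1 FPKM in the H209 libraries and 0.780, 1.04 and 0.722 FPKM in the MRC5 libraries. PDCD6, a calcium-binding protein, was called higher in both lines, at 1.07 and 2.07 log2 units, and in DMS153 not with median ratio or TPM scaling. PDZD2 and RICTOR were called higher in DMS153 and not in H209, at 1.83 and 1.45 log2 units. RICTOR lost that call with median ratio scaling (0.88), and PDZD2 was called in H209 with a pseudocount of 0.1. MYO10, a motor of filopodia, had 27.1, 28.9 and 26.7 FPKM in the DMS153 libraries, 11.6 and 10.8 FPKM in the H209 libraries and 31.2, 29.8 and 32.7 FPKM in the MRC5 libraries, and DAP 61.9, 61.3 and 69.5 FPKM in the DMS153 libraries, 28.6 and 33.2 FPKM in the H209 libraries and 84.8, 95.6 and 89.2 FPKM in the MRC5 libraries, and both were called lower in H209, with DAP also lower in DMS153 with median ratio scaling (-1.11). GOLPH3 was called higher in H209 (1.23 ± 0.08), but not with median ratio scaling. TRIO, BASP1, AHRR, EXOC3 and FAM105B were not called against MRC5 as scaled by the authors. Of these, only EXOC3 was called in no other setting, and FAM105B was called higher in DMS153 without DMS153 replicate 1 or MRC5 replicate 3.

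Of the cadherins and catenin, CDH9 and CDH10 were not expressed, CDH6 (ENSG00000113361.8, chr5:31193857-31329253) was called lower in both lines with at most 0.000661 FPKM in the DMS153 libraries, at most 0.0927 FPKM in the H209 libraries and 14.5, 14.1 and 15.1 FPKM in the MRC5 libraries, and CDH12 was called higher in both, by 1.53 and 1.12 log2 units. Neither CDH12 call held with quantile normalization. CDH18 was not called against MRC5 (0.97 ± 0.12 in DMS153), but was called higher in DMS153 in 5 settings (1.02 to 2.55), among them without DMS153 replicate 2 and without MRC5 replicate 1. CTNND2, the gene just inside the cut at 1 FPKM, was called higher in H209 alone (1.09 ± 0.08), though not with quantile normalization. Of the 4 cilia genes tested, TTC23L was called higher and SPEF2 lower in both lines, C5orf42 higher in H209 and DNAH5, an axonemal dynein, lower in H209. Quantile normalization ended the TTC23L calls (0.45 and 0.79) and the C5orf42 call, which median ratio scaling ended too (0.38). DNAH5 had 3.55, 2.66 and 3.46 FPKM in the DMS153 libraries, 0.264 and 0.233 FPKM in the H209 libraries and 1.93, 1.19 and 1.51 FPKM in the MRC5 libraries, and its H209 call, at -1.02, was lost without H209 replicate 2 and without MRC5 replicate 1, and in 2 other settings.

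**Figure D4:**
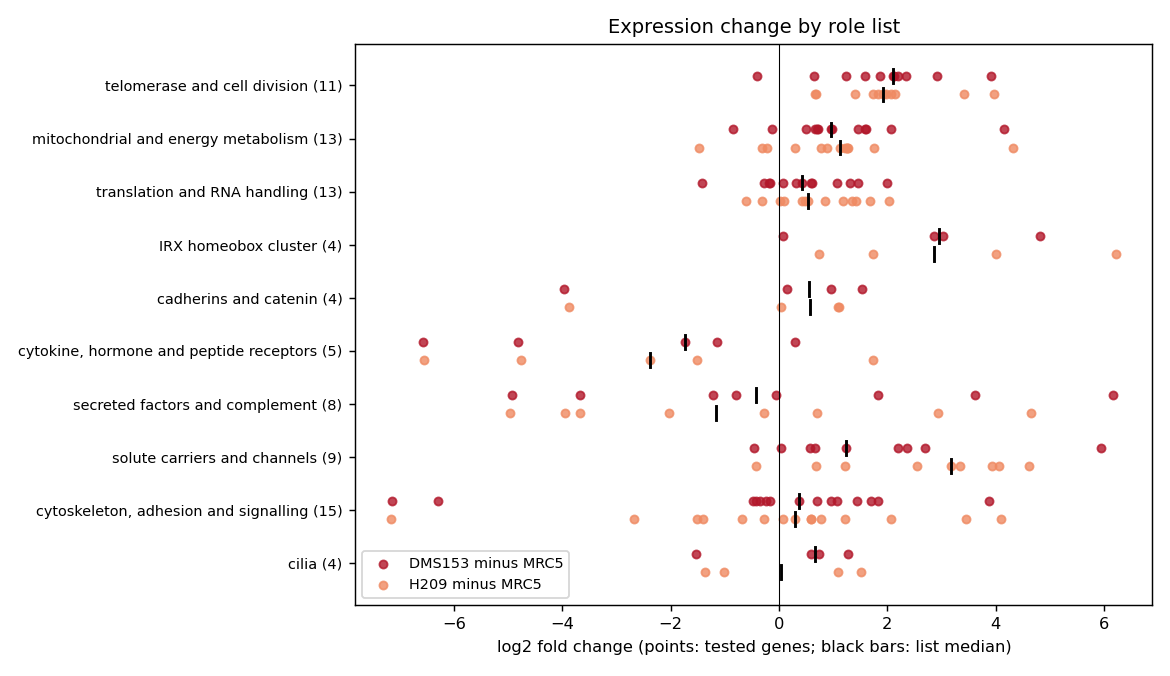
Log2 fold change against MRC5 of the tested genes of each role list, DMS153 above H209 in each row, with black bars at list medians and the number of genes in brackets. Telomerase and cell division, the IRX cluster and solute carriers lie mostly right of 0, with medians of 2.10, 2.95 and 1.23 in DMS153, and the 5 tested receptors mostly left, with a median of -1.73, of which OSMR, IL7R and NPR3 passed the filter only through MRC5.

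Genes outside the role lists that ranked among the 8 highest or lowest changes were PLEKHG4B, with 27.3, 29.3 and 27.1 FPKM in the DMS153 libraries, 64.2 and 61.2 FPKM in the H209 libraries and at most 0.131 FPKM in the MRC5 libraries, and FAM134B, a receptor for turnover of the endoplasmic reticulum, with 48.2, 52.1 and 54.8 FPKM in the DMS153 libraries, 28.3 and 30.0 FPKM in the H209 libraries and at most 0.112 FPKM in the MRC5 libraries. FAM105A had 30.4, 30.4 and 30.6 FPKM in the DMS153 libraries, 31.4 and 26.8 FPKM in the H209 libraries and 0.306, 0.350 and 0.435 FPKM in the MRC5 libraries. In all 3 the carcinoma libraries lie above every MRC5 library, which the rule for these ranks required, so nothing is read from it. SNHG18, a host gene of small nucleolar RNA, had at most 0.0679 FPKM in the DMS153 libraries, 0 FPKM in every H209 library and 11.3, 12.5 and 10.9 FPKM in the MRC5 libraries. SDHAP3, a pseudogene of SDHA with near-identical sequence, had 12.8, 13.8 and 13.4 FPKM in the DMS153 libraries, 54.3 and 50.6 FPKM in the H209 libraries and 0.153, 0.307 and 0.250 FPKM in the MRC5 libraries, and reads of the pair may be shared, so both are uncertain.

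The carcinoma lines differed from each other in fewer genes of the arm. In DMS153 against H209, 28 of 175 were called higher (16%, against 13.8% of all genes tested) and 25 lower (14.3%, against 13.4%), and the median log2 difference of the expressed genes was -0.04. With either H209 library left out, a gene at 1 FPKM or more only in H209 cannot pass the filter on low values. The filter then took 159 genes of the arm in place of 175. Counts of called genes from those fits cannot show how far the H209 libraries vary, and are not given. The median log2 difference of the expressed genes was -0.03 without H209 replicate 1 and -0.02 without H209 replicate 2. TPM scaling, which moved the median of all genes by -0.59, gave 18 higher and 56 lower genes, so that higher genes were 24.3% of those called in place of 52.8%.

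MARCH11, a ubiquitin ligase, led the genes higher in DMS153 with 14.2, 12.9 and 16.4 FPKM in the DMS153 libraries, against 0.416 and 0.142 FPKM in the H209 libraries, and its log2 difference was 3.60 ± 0.12. LINC01021 had 8.72, 7.86 and 9.08 FPKM in the DMS153 libraries, against at most 0.0302 FPKM in the H209 libraries, and MRC5 stood near DMS153, with 10.8, 7.73 and 8.87 FPKM in the MRC5 libraries. MIR4458HG had 13.4, 14.4 and 13.4 FPKM in the DMS153 libraries, against 3.02 and 3.92 FPKM in the H209 libraries, and 1.88, 2.22 and 2.43 FPKM in the MRC5 libraries. In the other direction, RAI14 and SLC6A3 differed by -3.63 and -3.38 log2 units. RP11-432M8.17, 1 of 4 neighbouring clones in window 4 that were listed at 0 in every DMS153 and MRC5 library, had 9.26 and 5.18 FPKM in the H209 libraries. These clones were singled out after their values were seen.

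Pairs of genes that start within 1000 bases of each other on opposite strands are described next, and those named were singled out after their values were seen. There were 15 such pairs of expressed genes. In DMS153 against MRC5, 7 pairs were called alike, 6 had 1 gene called, 2 had none and 0 went in opposite directions, and in H209 against MRC5 the numbers were 7, 4, 4 and 0. With 49.1% and 54.3% of the arm's tested genes called higher, and the arm chosen on these levels, nothing is read from these counts. LMBRD2 and SKP2, whose starts lie 27 bases apart, were both called higher in DMS153, at 1.66 ± 0.19 and 1.59 ± 0.09. MRPL36 and NDUFS6, 33 bases apart, had log2 fold changes of -0.85 ± 0.07 and 0.71 ± 0.11 in DMS153, of unlike sign and neither called, though MRPL36 was called lower with median ratio and TPM scaling. DROSHA was called higher in DMS153 at 1.86 ± 0.08 while C5orf22, 69 bases away, had 0.27 ± 0.07. SEMA5A and SNHG18, 124 bases apart, were both called lower in H209, and in DMS153 SNHG18 was, with SEMA5A called there only in other scalings. Antisense reads near such starts cannot be told apart without the strand.

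Chromatin domains of the arm were smaller and more numerous in DMS153. The tables list 65 domains on the arm in DMS153, 51 in H209 and 43 in MRC5, of 5023, 3987 and 3701 in all. Their median sizes were 300 kb in DMS153, 320 kb in H209 and 380 kb in MRC5, against 240, 300 and 300 kb in the same order over the rest of the genome without the Y chromosome. They covered 26.06 Mb (56.2% of the arm) in DMS153, 25.72 Mb (55.4%) in H209 and 24.62 Mb (53.1%) in MRC5. Domains of at least 1 Mb numbered 6, 9 and 10. With 1 Hi-C library per line these are descriptions of 3 libraries, with no replicate check. Hi-C depth is not given in the sources used here.

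Boundaries, with domain ends within 20 kb merged and all positions on a 20 kb grid, numbered 95 in DMS153, 81 in H209 and 70 in MRC5. Within 40 kb, 54 of the 95 DMS153 boundaries (56.8%) had a counterpart in MRC5, against 61.2% in the rest of the genome, and from the other side 56 of the 70 MRC5 boundaries (80%) had one in DMS153, against 79.7%. Of the 81 H209 boundaries 50 (61.7%) had one in MRC5, against 70.2% in the rest of the genome. From the other side, 51 of the 70 MRC5 boundaries (72.9%) had one in H209, against 74.4%. DMS153 shared 64 of its 95 (67.4%) with H209, against 70%. Found in neither other line were 20 boundaries of DMS153, 10 of H209 and 8 of MRC5.

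At a reciprocal overlap of at least 80%, 26 of 65 DMS153 domains (40%) were conserved in MRC5, against 44.3% in the rest of the genome, 23 of 51 H209 domains (45.1%) in MRC5, against 54.4%, and 34 of 65 DMS153 domains (52.3%) in H209, against 56.0%. From the other side, 26 of 43 MRC5 domains (60.5%) were conserved in DMS153, against 60.1%, and 23 of 43 (53.5%) in H209, against 58.4%. None of these differences was tested. Of the domains, 19 in DMS153 matched both other lines and 24 matched neither, with 18 and 12 in H209 and 18 and 12 in MRC5. Of the 176 expressed genes, 114 had their midpoint in a DMS153 domain, 94 in an H209 domain and 96 in an MRC5 domain.

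**Figure D5:**
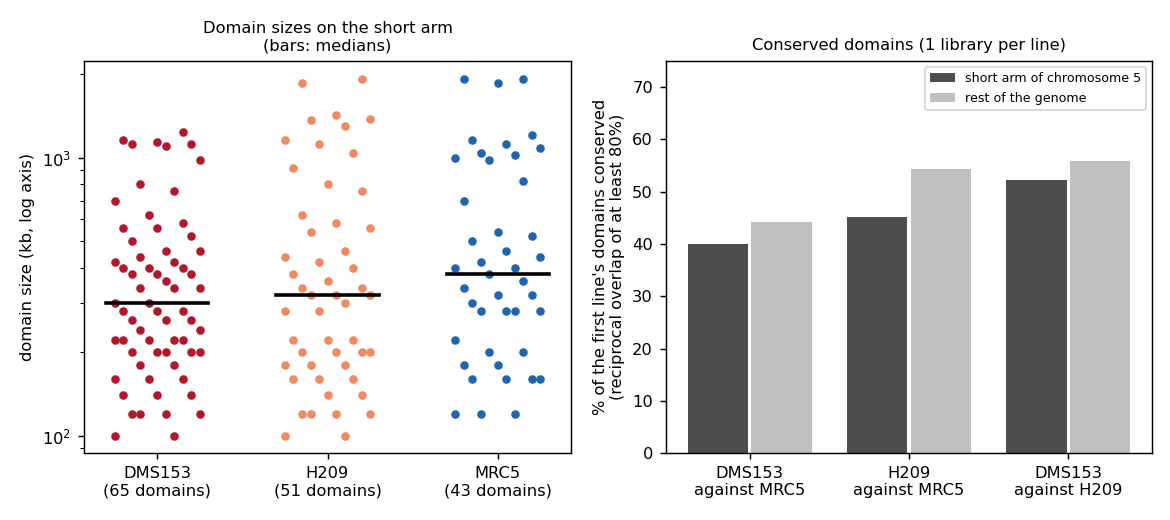
Left, size of each domain of the arm on a log axis, 65 in DMS153, 51 in H209 and 43 in MRC5, with bars at the medians of 300, 320 and 380 kb. Right, percent of the first line's domains conserved in the second line on the short arm (dark) and in the rest of the genome (light), with 40% against 44.3% for DMS153 against MRC5.

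The gene-dense end of the arm was divided differently in the 3 lines, with genes placed by their midpoint. DMS153 had a domain from 0.66 to 0.92 Mb that neither other line matched, which held TPPP, ZDHHC11, ZDHHC11B, BRD9, TRIP13 and 3 unnamed clones, and all 8 were called higher in DMS153 and in H209. H209 and MRC5 shared a smaller domain from 0.68 to 0.80 Mb with ZDHHC11, ZDHHC11B and 1 clone. MRC5 had a domain of its own from 0.90 to 1.18 Mb with TRIP13, NKD2 and SLC12A7. The next DMS153 domain, from 1.16 to 1.66 Mb, held TERT, CLPTM1L, SLC6A3, LPCAT1, SDHAP3 and 4 clones, and was matched in neither line. Besides the end of that MRC5 domain, in H209 and MRC5 only its far end, from 1.48 and 1.46 Mb to 1.66 Mb, lay in a domain, so that TERT, CLPTM1L and SLC6A3 stood in no domain there. TERT and SLC6A3 were called higher in both carcinoma lines and CLPTM1L in neither.

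Further along, IRX2, C5orf38 and 1 clone lay in a DMS153 domain from 2.56 to 2.76 Mb with no match in MRC5. Its match in H209 ended at 2.74 Mb and held the clone alone, with the midpoints of IRX2 and C5orf38 outside it. From 5.46 to 6.76 Mb H209 had a single domain where MRC5 had 2, from 5.48 to 6.60 Mb and from 6.60 to 6.76 Mb. The H209 domain and the larger MRC5 domain still overlap enough to count as conserved. The H209 domain held MED10, UBE2QL1, LINC01018, NSUN2, SRD5A1, PAPD7 and 1 clone. UBE2QL1, of the ubiquitin conjugating enzymes, had 10.8, 12.7 and 12.0 FPKM in the DMS153 libraries, 17.5 and 15.3 FPKM in the H209 libraries and at most 0.000595 FPKM in the MRC5 libraries. SEMA5A lay in a domain from 9.22 to 9.54 Mb that only MRC5 had, and FBXL7 in one from 15.02 to 16.02 Mb of MRC5. DMS153 matched it, with an end at 16.16 Mb that takes in MARCH11, and H209, where FBXL7 was called lower, did not.

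In window 8 the genes with the deepest falls lay in domains of both kinds. OSMR stood in a DMS153 domain from 38.82 to 38.94 Mb that neither other line had. DAB2 lay in a domain from 39.36 to 39.58 Mb in MRC5 that DMS153 matched and H209 did not, while its level was at most 0.0108 FPKM in both carcinoma lines. LIFR lay in a domain from 38.42 to 38.82 Mb found alike in all 3 lines, though its level was highest in H209. IL7R and SPEF2 shared an MRC5 domain from 35.62 to 35.94 Mb, of which DMS153 had the part from 35.76 Mb with IL7R alone and H209 an extended form from 35.02 Mb.

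Nearer the centromere, MRC5 had a domain from 40.88 to 41.86 Mb with C7 and OXCT1, which was split in H209 into one from 40.90 to 41.66 Mb with C7 and another from 41.70 to 41.86 Mb with OXCT1, and of which DMS153 had the C7 part. SEPP1 lay in a domain from 41.86 to 42.90 Mb in H209 and MRC5 and in a short DMS153 domain from 42.78 to 42.90 Mb. The midpoints of HMGCS1 and CCL28 lay in a domain from 43.30 to 43.40 Mb in DMS153 and H209 that MRC5 lacked. No domain of any line lay beyond 45 Mb. Domain differences and expression differences stand side by side here, and a relation between them was not tested.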

How the data were processed

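Per the file headers, the authors deposited 1 table per RNA library with a locus, an FPKM value and its confidence bounds for each gene, and the FPKM values were used as deposited. The domain tables were made by the authors, and how they computed the deposited score of each domain (column 8) is not given in the sources used here; it served only to keep the higher-scoring domains in an alternative. Tools listed in the submitters' processing notes, with no role for each, are HOMER 4.8, Cufflinks 2.2.0, TopHat2 2.1.0 and Bowtie2, with the hg19 build. Gene starts were counted from 1, and windows were assigned by gene midpoint. log2(FPKM + 1) of all 8 RNA libraries was fitted in R 4.3.3 with limma 3.58.1 (eBayes with a trend), 1 mean for each line, leaving 5 degrees of freedom; the script was tested on simulated data. Each carcinoma line was compared with MRC5, sharing its libraries, and DMS153 with H209, 2-sided. The arm, its 10 role lists, the marker lists and the tests were chosen with earlier results of these data known.

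Named genes are expressed members of the role lists, the 8 highest and 8 lowest changes of each comparison (lines whose libraries do not overlap, 5 FPKM or more on average in the higher line, no clones or small RNA), and genes of domains that differ between lines and hold at least 2 expressed genes. A domain counted as conserved when it overlapped 80% or more of a domain of the other line and the reverse, and as split when at least 2 domains of the other line, each at least 80% inside, covered at least 80%. Alternatives were other pseudocounts, filters, scalings, window sizes and overlaps, the replicate block and each library left out. RefSeq promoters were matched by gene identifier or symbol. Values of some listed genes are not reported here. The list member ICE1 is KIAA0947 in the files.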

Additional observations from a re-analysis of the deposited data

How the results depend on the processing

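Of 102 values under alternatives that leave no library out, 18 were counted as moved and 84 were not. A count of called genes could change widely without being counted as moved. The 95 genes called higher in H209 against MRC5 became 69 with median ratio scaling, 74 with quantile normalization and 116 with TPM scaling. The 86 of DMS153 against MRC5 became 69, 67 and 80 in the same order. The values counted as moved are given next. In DMS153 against MRC5, median ratio scaling gave 27 lower genes, and the median log2 fold change of expressed genes was 1.32 at a mean of at least 5 FPKM, 1.53 with a pseudocount of 0.1, 0.60 with median ratio scaling, 0.81 with TPM scaling, 1.23 scaled without small RNA and mitochondrial genes and 0.53 with quantile normalization. In H209 against MRC5 these medians were 1.30, 1.66, 0.61, 1.48, 1.28 and 0.76, and 100% of 10 Mb windows were above the median of all genes. In DMS153 against H209, TPM scaling gave 18 higher and 56 lower genes and a median of -0.56, and median ratio scaling a median of 0.051, of the opposite sign to -0.04. The cause was not tested beyond the scaling itself.

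Leaving out 1 library at a time gave 86 to 91 higher and 16 lower genes in DMS153 against MRC5, 79 to 97 higher and 22 to 24 lower in H209 against MRC5, and 27 to 29 higher and 13 to 26 lower in DMS153 against H209. With any 1 library of the lines compared left out, the median log2 fold changes ranged from 0.99 to 1.01, from 1.13 to 1.17 and from -0.04 to -0.02. No called named gene changed sign under the alternatives. Of 96 tested per comparison, 29, 33 and 29 gained or lost a call in at least 1. A gene that an alternative no longer tested was not counted as losing its call there, so these counts are lower bounds. The deviations of same-numbered libraries correlated only weakly, at 0.0771, 0.0717 and -0.0118 for DMS153 with MRC5, 0.0920 and 0.123 for H209 with MRC5, and 0.0115 and 0.0364 for DMS153 with H209. Those of libraries with unlike numbers lay between -0.123 and 0.0541. Deviations within a line sum to 0, so these values depend on each other and do not settle whether replicate numbers pair the libraries. A replicate block gave 86 higher and 16 lower, 95 and 23, and 27 and 24 genes in the 3 comparisons. With 1 Hi-C library per line, depth limits domain calls in a way these files do not show.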
